A study of Mus musculus with 9 samples.

Results

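Atox1, Ccs, Sod1, Slc25a3, Cox17, Sco1, Sco2, Cox11, Cox19 and Coa6 are the genes described here: the chaperones that carry copper to superoxide dismutase 1 and cytochrome c oxidase, with that dismutase and the mitochondrial copper carrier. They were listed by name for their role, with earlier results of these data known, and make up 10 of 52661 gene rows in the data. All 10 passed the filter on low counts that left 18408 genes for testing. Sco2, a chaperone of cytochrome oxidase, was the only one of the 10 with an RNA level called different between groups, 4.94 ± 0.645 CPM (read counts relative to library size) in Ctr1-null cells given a copper chelator and 8.98 ± 1.11 CPM in wild type cells (SD, n = 3 each). Most of its exonic bases lie in another gene, Tymp, whose level rose in the same comparison. The summed counts of both genes, chosen after these opposite changes were seen, were not called. The other 9 genes were not called in any comparison.

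Copper that enters a cell is handed from protein to protein rather than left free in solution. In the cytosol, Atox1 passes it to the copper-pumping ATPases of the secretory pathway, and Ccs loads it into Sod1, the enzyme that converts superoxide to hydrogen peroxide. In mitochondria, Slc25a3 brings copper into the matrix, and Cox17 in the intermembrane space supplies Sco1 and Sco2, which serve the copper site of cytochrome oxidase subunit 2, and Cox11, which serves the site of subunit 1. Cox19 and Coa6 are further intermembrane space proteins of this assembly route. Levels of the Ccs protein are known to be controlled by copper through protein turnover, a layer that RNA sequencing does not measure.

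RNA was sequenced from embryonic fibroblasts, cultured connective tissue cells, of C57BL/6 mice, immortalised with T/t antigen in every group. The 3 groups were Ctr1-null cells (genotype Ctr1 -/-, titled FloxedCtr1) treated with bathocuproine disulfonic acid (BCS), a copper chelator, at 500 uM for 48 hours, untreated Ctr1-null cells and untreated wild type cells, with 3 libraries each. Ctr1 is the copper importer of the plasma membrane, encoded by Slc31a1, and the series record gives the BCS dose in mM where the labels give uM. No wild type cells with BCS are among the samples, whether a group is 1 clone is not stated, and the labels do not say that replicates are separate cultures, so p-values measure only the spread between these libraries.

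Library totals were 38962036 to 57206337 counts, and 3 counts, the most that a count of 0 allows, are 0.0524 to 0.077 CPM. The targeted gene Slc31a1 had 3.24, 2.54 and 1.69 CPM in Ctr1-null BCS cells, 2.54, 3.87 and 1.40 CPM in Ctr1-null cells and 56.1, 54.7 and 54.8 CPM in wild type cells, which fits the labels. Of 11 fibroblast markers, 8 were at 1 CPM or more in every library, Dcn was so in 1 Ctr1-null and 1 wild type library, and Lum and Thy1 in none. The summed level of 5 adipocyte markers was 11.1 to 18.8 CPM in Ctr1-null BCS cells, 10.3 to 14.7 CPM in Ctr1-null cells and 2.53 to 6.28 CPM in wild type cells, with Adipoq, Cidec and Plin1 below 1 CPM in every library. Other marker sums also did not overlap between Ctr1-null BCS and wild type cells. They were 5.87 to 11.01 CPM against 4.05 to 4.24 CPM for 5 muscle markers (Myod1 at 0), 12.5 to 22.1 against 5.62 to 12.49 CPM for 5 macrophage and blood markers (Adgre1 at 0), and 120 to 145 against 155 to 244 CPM for 6 neural and glial markers (Gfap, Olig2 and Pax6 below 1 CPM). Nes made up most of the neural and glial sum (means of 115 against 169 CPM). Sox2 of that list was also lower without overlap, whereas Fabp7 and Gfap of that list were higher without overlap. Of the muscle markers, Des had means of 5.31 against 0.820 CPM and Acta1 of 2.78 against 3.18 CPM, with Myog and Tnnt2 below 1 CPM. Cd68 made up most of the macrophage and blood sum (means of 16.3 against 7.45 CPM). In that list, Csf1r had 0.862 against 0.336 CPM and Ptprc 0.204 against 0.237 CPM, and Lyz2 was below 1 CPM. Of 29 markers tested, 3 were called in that comparison, all higher: Fabp4 (2.15 ± 0.29, edgeR adjusted p = 0.00560), Des (2.68 ± 0.47, adjusted p = 0.00952) and Fabp7 (2.81 ± 0.62, adjusted p = 0.0189). Whether these differences have a part in the results was not tested, and in bulk RNA fewer cells of a type and less RNA per cell cannot be told apart. Wild type replicate 1 stood apart from its group on the first principal component, which held 46.2% of the variance: it scored -2.04, against 67.1 and 63.3 for wild type replicates 2 and 3. Ccs and Sod1 are given with and without it, and so are some named list genes in Ctr1-null against wild type cells.

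The coding sequences below show the copper-binding cysteines that define these proteins, read from the GENCODE M21 transcripts on GRCm38. The codons of the cysteine pair that each line shows are in capitals. In the first Cox17 line the last codon, in lower case, is a cysteine too, which belongs to a pair 9 codons apart. Sco1 and Sco2 are printed together because they are paralogues and because the Sco2 site lies inside the last exon of Tymp.
Sco2, chr15:89372066-89372092, minus strand: actcacTGCcctgatattTGCcccgat
Sco1, chr11:67055865-67055891, plus strand: actcatTGCcctgatatcTGTccagaa
Atox1, chr11:55454912-55454935, minus strand: atgaccTGTgagggcTGTgctgaa
Ccs, amino-terminal domain, chr19:4838862-4838885, minus strand: atgagtTGTcagagcTGTgtggat
Ccs, carboxy-terminal domain, chr19:4825592-4825612, minus strand: cagatcTGCtccTGTgatggc
Cox17, chr16:38347161-38347178, plus strand: aagcccTGCTGTgcctgc
Cox11, plus strand of chromosome 11 across an exon junction: atacagTGCttcTGTtttgaa
The Sco sites had 22 of 27 bases in common, with 3 codons between the cysteines in both genes. Atox1 and the amino-terminal domain of Ccs both have 2 codons between their cysteines, whereas Cox17 has adjacent cysteine codons and Cox11 has 1 codon between them. Cox19 and Coa6 carry cysteines 9 codons apart, a spacing that Cox17 also has, and 1 such pair of each is shown for comparison.
Cox17, chr16:38349260-38349304, plus strand: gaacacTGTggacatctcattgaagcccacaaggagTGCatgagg
Cox19, chr5:139342568-139342612, minus strand: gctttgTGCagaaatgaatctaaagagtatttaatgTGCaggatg
Coa6, chr8:126422714-126422758, plus strand: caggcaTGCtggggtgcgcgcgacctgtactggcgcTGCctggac

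All 10 genes were expressed in every library, at levels that spanned a wide range. Per kilobase of the median annotated transcript, the mean over 9 libraries was highest for Slc25a3 at 313 CPM per kb, followed by Sod1 at 232 and Atox1 at 66.3 CPM per kb. Ccs stood at 29.3 CPM per kb. The remaining 6 genes were lower: Coa6 15.3, Cox17 14.8, Cox19 9.74, Cox11 7.49, Sco1 6.05 and Sco2 5.91 CPM per kb. The places of Cox17 and Cox19 depend on which transcript is made, since Cox17 ran from 8.30 CPM per kb with its longest transcript to 69.0 with its shortest, and Cox19 from 5.81 to 30.1. Coa6 and Cox17 differed by less than their spread over libraries, as did Sco1 and Sco2 when averaged over all groups.

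The spread between libraries differed among these genes. The ratio of the highest to the lowest library was 1.18 for Cox17, 1.23 for Sco1, 1.26 for Atox1, 1.27 for Cox11, 1.32 for Coa6 and 1.40 for Ccs. For Cox19 it was 1.41, for Slc25a3 1.43, for Sod1 1.72 and for Sco2 2.26. The median of 10789 genes with a mean of at least 5 CPM was 1.42, and 7 of the 10 genes lay below it. Of these, Ccs and Cox19 lay close to it, with a wider ratio for 52.9% and 50.7% of the 10789 genes. A wider ratio than that of Cox17 was found for 92.5% of those genes, and a wider one than that of Sco2 for 8.81%.

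**Figure D1:**
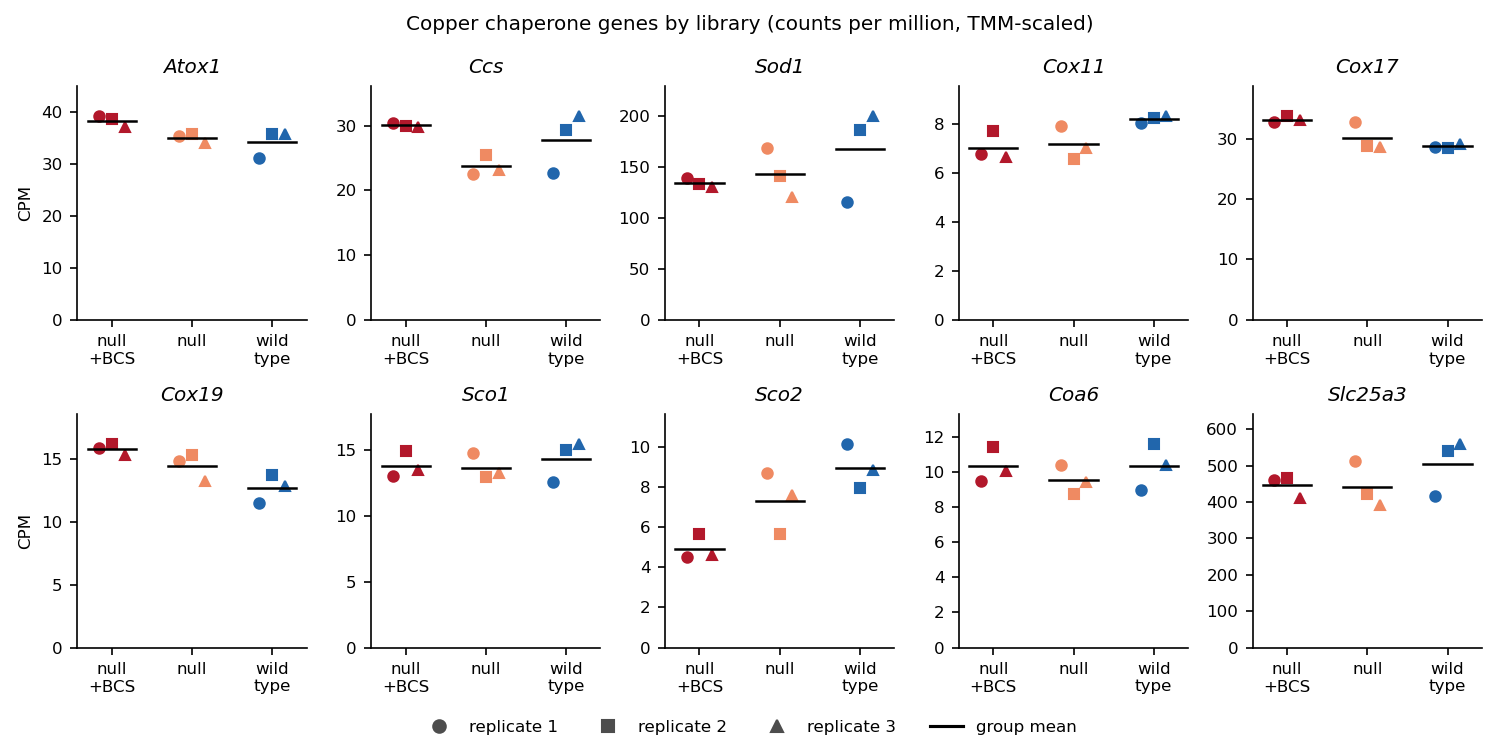
CPM of each of the 10 genes in the 9 libraries (points), by group, with the group mean as a bar and a linear axis from 0. Sco2 has 4.49 to 5.68 CPM in Ctr1-null BCS cells and 7.94 to 10.1 CPM in wild type cells, without overlap, and Sod1, Sco1, Coa6 and Slc25a3 overlap between all groups.

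Genes were called at a Benjamini-Hochberg adjusted p under 0.05 in edgeR's quasi-likelihood test of all 18408 genes, and log2 fold changes are given ± standard error. In Ctr1-null BCS cells against wild type cells, 1 of the 10 genes was called (Sco2, lower), where 15.8% of all genes tested were called and 7.28% were called lower. An unadjusted p under 0.05 was reached there by 3 of 10 (Cox17 and Cox19 higher, Sco2 lower), with a background of 32.9%. In Ctr1-null BCS against Ctr1-null cells 0 of the 10 genes were called, where 0.0543% of all genes were, and an unadjusted p under 0.05 was reached by Ccs (higher, background 8.34%) and Sco2 (lower, background 6.37%), with 14.7% of all genes in either direction. In Ctr1-null against wild type cells 0 of 10 were called and 0 had an unadjusted p under 0.05, with backgrounds of 0.0109% and 17.6%. DESeq2 also called 0 of the 10 genes in both of these comparisons, where it called 4.25% of all genes in Ctr1-null BCS against Ctr1-null cells and 6.49% in Ctr1-null against wild type cells. The median log2 fold change of the 10 genes was -0.03 in Ctr1-null BCS against wild type cells, 0.07 in Ctr1-null BCS against Ctr1-null cells and -0.15 in Ctr1-null against wild type cells. The medians of all genes tested, in the same order, were 0.0065, 0.0017 and 0.005. These comparisons share libraries, so their values are not independent of each other.

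Groups that did not overlap were counted as a second description. Ctr1-null BCS libraries were all above wild type for Atox1, Cox17 and Cox19 and all below it for Cox11 and Sco2, 5 of 10 genes against 37.1% of all genes (20.0% above and 17.1% below). Ctr1-null BCS libraries were all above Ctr1-null libraries for Atox1 and Ccs, 2 of 10 genes against 24.3% of all genes, 13.4% being above. Ctr1-null libraries were all below wild type for Cox11, 1 of 10 genes against 18.1% of all genes, 8.62% being below. These shares are near the background.

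**Figure D2:**
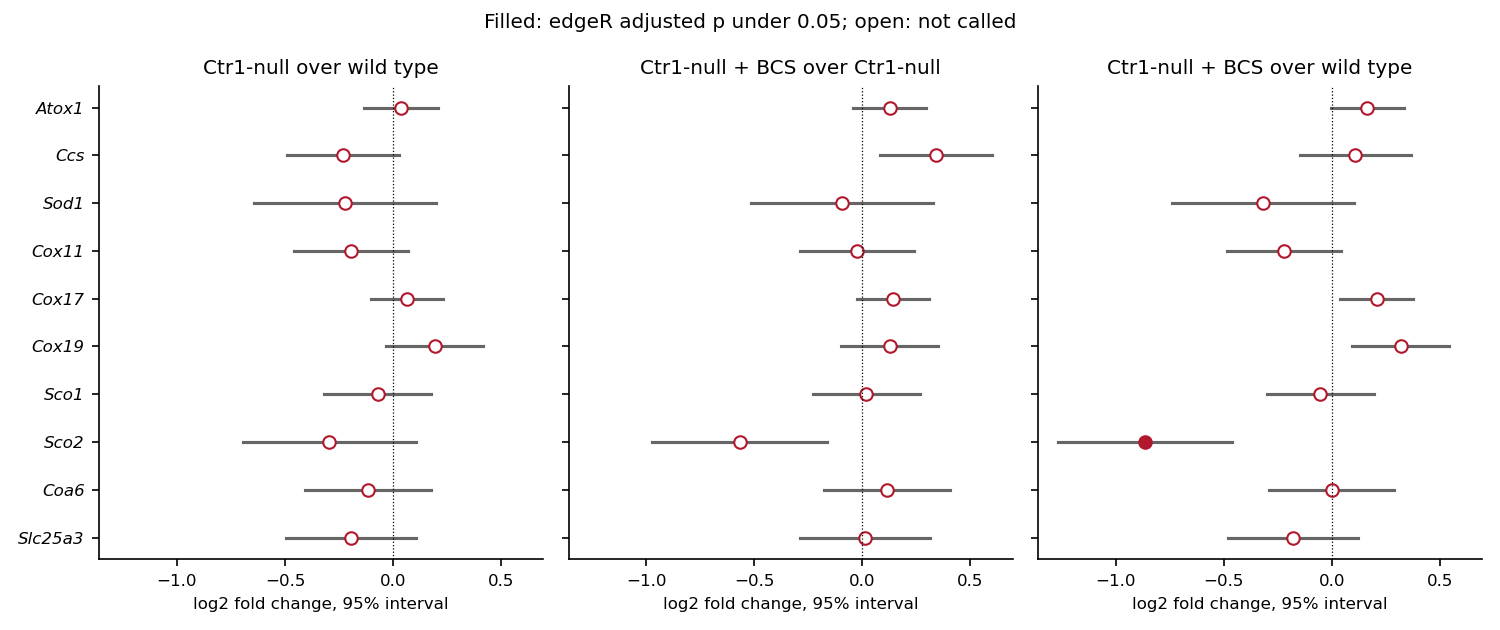
Log2 fold change of each gene with its 95% interval from the edgeR fit, for the 3 comparisons. In Ctr1-null BCS against wild type cells, Sco2 at -0.86 is the only called gene, with an interval of -1.27 to -0.46.

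Sco2 (ENSMUSG00000091780.3, chr15:89371637-89373846, minus strand) is one of the chaperones that deliver copper to subunit 2 of cytochrome oxidase. It had 4.49, 5.68 and 4.64 CPM in the Ctr1-null BCS libraries, 8.70, 5.67 and 7.60 CPM in the Ctr1-null libraries and 10.1, 7.94 and 8.84 CPM in the wild type libraries. All Ctr1-null BCS libraries were below all wild type libraries, and Ctr1-null replicate 2 was at the level of the highest Ctr1-null BCS library. Sco2 fell in Ctr1-null BCS cells to 0.550 of its wild type level (log2 fold change -0.86 ± 0.18, 95% interval -1.27 to -0.46, edgeR adjusted p = 0.0163). Against Ctr1-null cells without BCS the value was -0.57 ± 0.18 (edgeR adjusted p = 0.209), and in Ctr1-null against wild type cells -0.29 ± 0.18 (edgeR adjusted p = 0.407). The call against wild type ended without Ctr1-null BCS replicate 1 (-0.80, edgeR adjusted p = 0.0669), without Ctr1-null BCS replicate 3 (-0.82, adjusted p = 0.0708) and without wild type replicate 3 (-0.87, adjusted p = 0.0617).

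The Sco2 locus overlaps its neighbours. Of 1253 exonic bases of Sco2, 856 (68.3%) are also exonic in Tymp, the gene of thymidine phosphorylase, on the same strand. The coding region of Sco2 is 765 bases, chr15:89371685-89372449, and 519 of them lie within the last exon of Tymp, the copper site shown above included. On the opposite strand, 829 bases (66.2%) are exonic in Ncaph2, a condensin II subunit. Reads of the bases shared with Tymp cannot be assigned to 1 gene from these values, and strand would not separate them. Whether counting used strand is not stated, so the same holds here for the bases shared with Ncaph2.

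Tymp moved the opposite way to Sco2. It had 7.55, 6.49 and 4.84 CPM in Ctr1-null BCS cells, 4.40, 4.22 and 3.22 CPM in Ctr1-null cells and 2.76, 3.00 and 4.07 CPM in wild type cells. All Ctr1-null BCS libraries were above all libraries of the other groups. Tymp rose in Ctr1-null BCS cells relative to wild type cells by 0.94 ± 0.22 (edgeR adjusted p = 0.0227), a call that ended without Ctr1-null BCS replicate 1 (adjusted p = 0.0875), without Ctr1-null BCS replicate 2 (0.0578) and without wild type replicate 2 (0.0885). Against Ctr1-null cells its value was 0.67 ± 0.22 (edgeR adjusted p = 0.217).

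With the counts of Sco2 and Tymp added together, a setting chosen after the values were seen, the groups overlapped. The sum was 12.0, 12.2 and 9.48 CPM in Ctr1-null BCS cells, 13.1, 9.90 and 10.8 CPM in Ctr1-null cells and 12.9, 10.9 and 12.9 CPM in wild type cells. Relative to wild type cells, the summed counts in Ctr1-null BCS cells differed by -0.13 ± 0.14 on the log2 scale (95% interval -0.45 to 0.20, edgeR adjusted p = 0.577) and were not called. Because Sco2 and Tymp had moved in opposite directions, the sum cannot show whether Sco2 RNA itself fell. Against Ctr1-null cells the sum differed by -0.01 ± 0.14 (edgeR adjusted p = 0.992). Ncaph2, read from the other strand, averaged 189 ± 11.3 CPM in Ctr1-null BCS cells and 230 ± 30.5 CPM in wild type cells (SD, n = 3 each), a log2 fold change of -0.28 ± 0.10 that was not called (edgeR adjusted p = 0.0850).

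**Figure D3:**
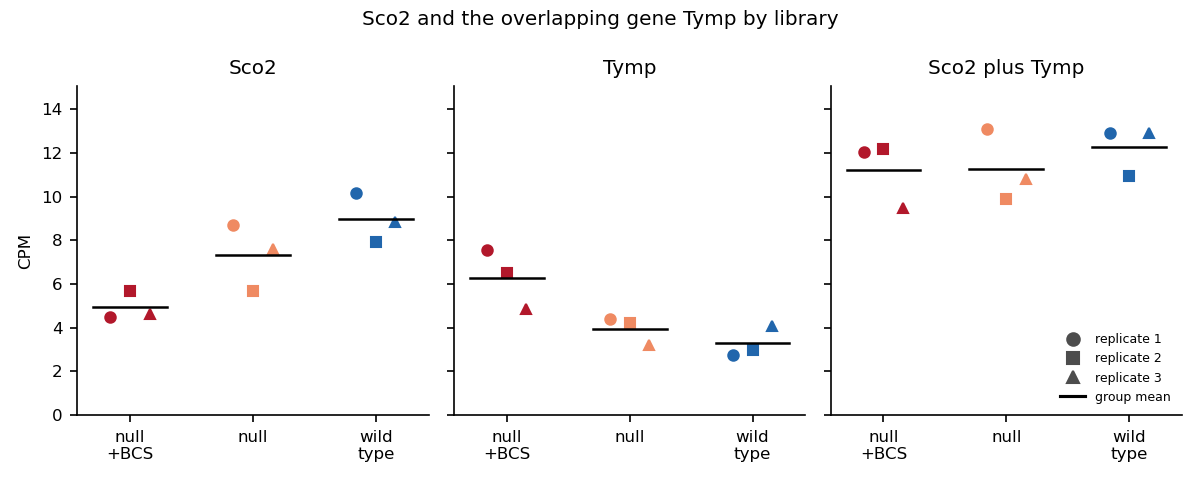
CPM of Sco2, of Tymp and of their sum in the 9 libraries (points), by group, with the group mean as a bar. Sco2 is lowest and Tymp highest in Ctr1-null BCS cells, and the sum averages 11.2 CPM in Ctr1-null BCS, 11.3 CPM in Ctr1-null and 12.3 CPM in wild type cells.

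Sco1, the paralogue of Sco2 on chromosome 11, stayed within a narrow range. It had 13.0, 14.9 and 13.4 CPM in Ctr1-null BCS cells, 14.7, 12.9 and 13.2 CPM in Ctr1-null cells and 12.6, 14.97 and 15.4 CPM in wild type cells, with overlap between all groups. Its log2 fold change was -0.05 ± 0.11 in Ctr1-null BCS against wild type cells (edgeR adjusted p = 0.772) and 0.02 ± 0.11 against Ctr1-null cells (adjusted p = 0.963). Sco1 has no exonic overlap with another annotated gene. Sco2 counts as a percentage of Sco1 counts, which no scaling between libraries affects, were 34.6%, 38.1% and 34.5% in Ctr1-null BCS cells, 59.2%, 43.9% and 57.6% in Ctr1-null cells and 80.8%, 53.1% and 57.4% in wild type cells. The Ctr1-null BCS libraries were below all others, and the Ctr1-null and wild type libraries overlapped. The log2 ratio differed by -0.81 in Ctr1-null BCS against wild type cells and by -0.57 against Ctr1-null cells (2-sided exact permutation p = 0.1 for both, the smallest that 3 against 3 libraries allow). The ratio carries the overlap of Sco2 with Tymp. In Ctr1-null against wild type cells the difference was -0.24 (exact permutation p = 0.6).

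**Figure D4:**
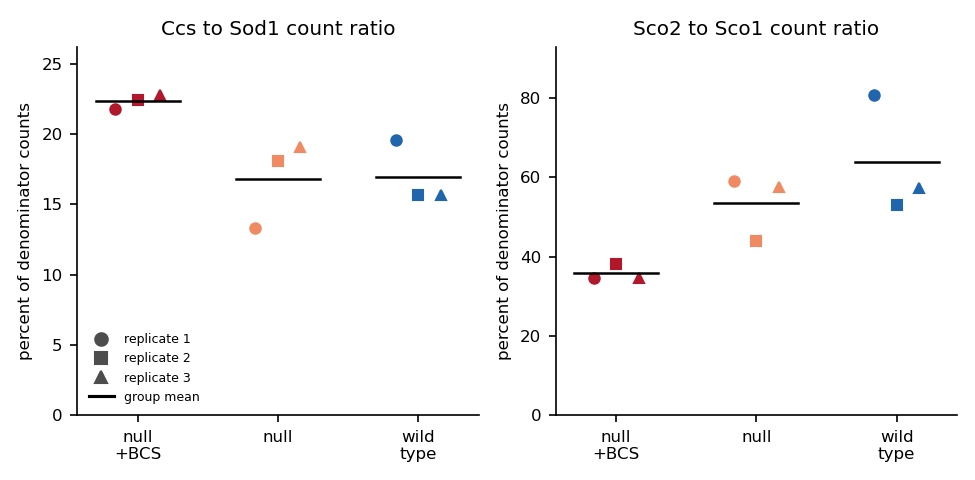
Counts of Ccs as a percentage of Sod1 counts and of Sco2 as a percentage of Sco1 counts, 1 point per library, by group. Sco2 is 34.5% to 38.1% of Sco1 in Ctr1-null BCS cells and 53.1% to 80.8% in wild type cells, and Ccs is 21.8% to 22.8% of Sod1 in Ctr1-null BCS cells and 15.7% to 19.6% in wild type cells.

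Cox17 and Cox19, small cysteine-paired proteins of the intermembrane space, were higher in all Ctr1-null BCS libraries than in all wild type libraries but missed the threshold. Cox17 (chr16:38346991-38352763, plus strand), which supplies copper to the Sco proteins and Cox11, had 32.7, 33.7 and 33.1 CPM in Ctr1-null BCS cells, 32.7, 28.7 and 28.7 CPM in Ctr1-null cells and 28.6, 28.5 and 29.1 CPM in wild type cells. Ctr1-null replicate 1 was with the Ctr1-null BCS libraries, and Ctr1-null replicates 2 and 3 were with wild type. The difference from wild type in Ctr1-null BCS cells was 0.21 ± 0.07 (95% interval 0.04 to 0.37, edgeR adjusted p = 0.0878).

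Cox19 (chr5:139336189-139351418, minus strand) had 15.9, 16.2 and 15.3 CPM in Ctr1-null BCS cells, 14.8, 15.3 and 13.2 CPM in Ctr1-null cells and 11.5, 13.7 and 12.8 CPM in wild type cells. The groups lay in the order Ctr1-null BCS, Ctr1-null and wild type, and each overlapped its neighbour in that order. Its log2 fold change in Ctr1-null BCS against wild type cells was 0.32 ± 0.10 (95% interval 0.09 to 0.54, edgeR adjusted p = 0.0591). Scaling by library size alone, which moved the median of all genes in this comparison to 0.105 on the log2 scale, gave calls, among 15.5% of all genes, for Cox17 (0.31, adjusted p = 0.0208), Cox19 (0.42, adjusted p = 0.0199) and Atox1 (0.26, adjusted p = 0.0290). The stricter filter on low counts, with 20.9% of all genes called, also gave calls for Cox17 (0.23, edgeR adjusted p = 0.0432) and Cox19 (0.34, adjusted p = 0.0331), and DESeq2, with 21.3% called, for Cox19 (0.30, adjusted p = 0.0483). That scaling called 2064 genes higher and 784 lower, where TMM scaling called 1576 higher and 1340 lower.

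Cox11 (chr11:90638173-90644931, plus strand), the chaperone for the copper site of subunit 1, had 6.78, 7.72 and 6.65 CPM in Ctr1-null BCS cells, 7.93, 6.57 and 7.04 CPM in Ctr1-null cells and 8.06, 8.27 and 8.32 CPM in wild type cells. Every library of both Ctr1-null groups was below every wild type library. The log2 fold change was -0.22 ± 0.12 in Ctr1-null BCS against wild type cells (edgeR adjusted p = 0.222) and -0.20 ± 0.12 in Ctr1-null against wild type cells (adjusted p = 0.405), neither called. Of its exonic bases, 48.3% are shared with Tom1l1 on the opposite strand. Tom1l1 had 20.4, 20.8 and 20.5 CPM in Ctr1-null BCS cells and 27.0, 27.5 and 24.1 CPM in wild type cells (-0.35 ± 0.11, edgeR adjusted p = 0.0520), and reads of the shared bases cannot be told apart without strand.

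Coa6 (chr8:126422515-126425433, plus strand), a further factor in loading subunit 2, had 9.46, 11.4 and 10.0 CPM in Ctr1-null BCS cells, 10.4, 8.73 and 9.43 CPM in Ctr1-null cells and 8.98, 11.6 and 10.4 CPM in wild type cells, with overlap between all groups. Its value in Ctr1-null BCS against wild type cells was -0.00 ± 0.13 (edgeR adjusted p = 0.995), and 14.1% of its exonic bases are shared with Tarbp1 on the opposite strand. Slc25a3 (chr10:91116574-91124059, minus strand), which carries phosphate as well as copper into the matrix, had the highest level per kilobase of the 10 genes. It had 459.6, 465.5 and 411 CPM in Ctr1-null BCS cells, 512, 421 and 392 CPM in Ctr1-null cells and 416, 540.1 and 559 CPM in wild type cells. Wild type replicate 1 was the lowest of its group, and the groups overlapped. The log2 fold change was -0.18 ± 0.13 in Ctr1-null BCS against wild type cells (edgeR adjusted p = 0.383) and -0.19 ± 0.13 in Ctr1-null against wild type cells (adjusted p = 0.472). With a library left out, these values ran from -0.31 to -0.10 and from -0.32 to -0.11, and were not called.

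In the cytosolic branch, Ccs (chr19:4825366-4839332, minus strand), the chaperone of Sod1, had 30.4, 29.9 and 29.8 CPM in Ctr1-null BCS cells, 22.5, 25.5 and 23.1 CPM in Ctr1-null cells and 22.7, 29.4 and 31.4 CPM in wild type cells. The Ctr1-null BCS libraries lay within a coefficient of variation of 1.14% and above all Ctr1-null libraries, while wild type replicate 1 was at the level of Ctr1-null. Against Ctr1-null cells, the BCS-treated cells had 1.27 times the Ccs level (log2 fold change 0.34 ± 0.12, 95% interval 0.08 to 0.60), with an unadjusted p of 0.0148 and an edgeR adjusted p of 0.230. Relative to wild type the value was 0.11 ± 0.12 (edgeR adjusted p = 0.545). For Ctr1-null against wild type cells it was -0.23 ± 0.12 (adjusted p = 0.326). Without wild type replicate 1 it was -0.36 and called (adjusted p = 0.0160), where 17.3% of all genes were called, against 0.0109% with all libraries.

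Sod1 (chr16:90220754-90226329, plus strand), the copper and zinc superoxide dismutase that Ccs loads, had 139.6, 133 and 131 CPM in Ctr1-null BCS cells, 169, 141 and 121 CPM in Ctr1-null cells and 116, 187 and 199.9 CPM in wild type cells. Wild type libraries held both the lowest and the highest value. Sod1 was not called in Ctr1-null BCS against wild type cells (-0.32 ± 0.19, 95% interval -0.74 to 0.10, edgeR adjusted p = 0.267) or in Ctr1-null against wild type cells (-0.22 ± 0.19, adjusted p = 0.552). Without wild type replicate 1 both were called, at -0.53 (adjusted p = 0.0113) and -0.43 (adjusted p = 0.0413), where 31.0% of all genes were called in Ctr1-null BCS against wild type cells and 17.3% in Ctr1-null against wild type cells (3254 genes, against 2 with all libraries). A near-identical pseudogene copy, Gm8566, had at most 0.0995 CPM.

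Ccs counts were 21.8%, 22.5% and 22.8% of Sod1 counts in Ctr1-null BCS cells, 13.3%, 18.1% and 19.1% in Ctr1-null cells and 19.6%, 15.7% and 15.7% in wild type cells. The Ctr1-null BCS libraries were above all others. The log2 ratio differed by 0.40 in Ctr1-null BCS against wild type cells and by 0.43 against Ctr1-null cells (2-sided exact permutation p = 0.1 for both, the smallest possible here), and by -0.02 in Ctr1-null against wild type cells (exact permutation p = 0.9).

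Atox1 (chr11:55446641-55461239, minus strand), the chaperone of the copper ATPases, had 39.2, 38.7 and 37.1 CPM in Ctr1-null BCS cells, 35.3, 35.8 and 34.1 CPM in Ctr1-null cells and 31.2, 35.7 and 35.7 CPM in wild type cells. Ctr1-null BCS libraries were above the libraries of both other groups, which overlapped each other. Its log2 fold change was 0.16 ± 0.08 in Ctr1-null BCS against wild type cells (95% interval -0.01 to 0.33, edgeR adjusted p = 0.165), 0.13 ± 0.08 against Ctr1-null cells (adjusted p = 0.471) and 0.04 ± 0.08 in Ctr1-null against wild type cells (adjusted p = 0.819).

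Across the 9 libraries, the genes whose centred log2 CPM profiles lay nearest to those of the cytosolic chaperones were ranked by root mean square difference among 10214 candidates, as a description. For Atox1 the nearest were Mapkap1 (0.0299), Mtmr6 (0.0368) and Fnta (0.0376). For Ccs they were Pmm1 (0.0486), Mknk2 (0.0599) and Hdac8 (0.065), and for Sod1 Pabpc1 (0.0335), S100a11 (0.0571) and Irak1 (0.0597). Among the 10 genes themselves the closest pairs were Sco1 with Coa6 (0.0664), Atox1 with Cox17 (0.0765) and Atox1 with Cox19 (0.0854), and Sod1 with Slc25a3 stood at 0.114. These profiles share library depth and scaling.

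Further genes of the same routes were read from 5 lists, beside the 15.8% of all genes called in Ctr1-null BCS against wild type cells (8.56% higher and 7.28% lower). Of 20 other cytochrome oxidase assembly factors, 1 was called, and of 15 oxidase subunits 1 was called, both higher. Coa8, an assembly factor listed as Apopt1 in GENCODE M21, had 15.7, 13.1 and 15.3 CPM in Ctr1-null BCS cells and 9.35, 10.3 and 12.0 CPM in wild type cells, and rose by 0.48 ± 0.12 (edgeR adjusted p = 0.0297). The mitochondrially encoded subunit 2 gene, mt-Co2, whose protein receives copper from the Sco proteins, had 3267, 3072 and 3792 CPM in Ctr1-null BCS cells and 2573, 2718 and 2248 CPM in wild type cells, and rose by 0.43 ± 0.11 (edgeR adjusted p = 0.0347). Both calls ended without Ctr1-null BCS replicate 1 (adjusted p = 0.107 for Coa8, 0.0890 for mt-Co2) and without Ctr1-null BCS replicate 3 (0.107 and 0.144). They ended too without wild type replicate 2 (0.104 and 0.0742) and without wild type replicate 3 (0.0505 and 0.132), and that of mt-Co2 in the fit of 2 groups (0.0508). For mt-Co1, subunit 1, the values were 10013 to 14384 CPM in Ctr1-null BCS cells and 8394 to 10308 CPM in wild type cells (0.38 ± 0.14, edgeR adjusted p = 0.0975).

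The relay that imports and oxidises the cysteine-paired proteins Cox17, Cox19 and Coa6 was represented by 3 genes. In Ctr1-null BCS against wild type cells, where 7.28% of all genes were called lower, 1 of these 3 was. Aifm1, the partner of the import receptor Chchd4, had 58.6, 62.3 and 55.9 CPM in Ctr1-null BCS cells, 75.9, 71.1 and 66.5 CPM in Ctr1-null cells and 76.1, 86.8 and 90.1 CPM in wild type cells. Every Ctr1-null BCS library was below all libraries of the other groups. Aifm1 fell by 0.52 ± 0.09 on the log2 scale in Ctr1-null BCS cells relative to wild type cells (edgeR adjusted p = 0.00871) and kept this call under all 18 alternative settings (other scalings, filters and tools, and each library left out).

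Around Sod1, 5 of 16 other superoxide and peroxide enzymes were called in Ctr1-null BCS against wild type cells, 2 higher and 3 lower. Of all genes, 8.56% were called higher and 7.28% lower there. The list median was -0.25. The extracellular copper enzyme Sod3 had 9.22, 8.44 and 9.36 CPM in Ctr1-null BCS cells, 12.9, 14.7 and 16.7 CPM in Ctr1-null cells and 22.1, 13.5 and 13.8 CPM in wild type cells, and fell by 0.87 ± 0.19 on the log2 scale (edgeR adjusted p = 0.0181). That call ended without Ctr1-null BCS replicate 1 (adjusted p = 0.0626) or 3 (0.0656). The peroxiredoxins Prdx4 (-0.72 ± 0.13, edgeR adjusted p = 0.00926) and Prdx6 (-0.48 ± 0.14, adjusted p = 0.0426) also fell, Prdx4 under all 18 alternatives and Prdx6 under 9 of 18.
Extracellular glutathione peroxidase Gpx3 rose by 2.51 ± 0.51 (edgeR adjusted p = 0.0154) at low levels, 5.20, 4.81 and 8.76 CPM in Ctr1-null BCS cells and 1.81, 0.675 and 0.780 CPM in wild type cells. Its call ended without Ctr1-null BCS replicate 3 (0.0638), wild type replicate 2 (0.0649) or wild type replicate 3 (0.0719). The peroxisomal catalase gene Cat rose by 0.32 ± 0.09 (edgeR adjusted p = 0.0379), a call kept under 8 of 18 alternatives.

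Of 13 genes of copper transport, storage and Ccs turnover, 12 were tested. In Ctr1-null BCS against wild type cells, where 7.28% of all genes were called lower, 3 of these 12 were. They were the deleted Slc31a1 (-4.47 ± 0.33, edgeR adjusted p = 0.00135), the metal ion importer Slc11a2 (-0.52 ± 0.09, adjusted p = 0.0103) and the copper ATPase Atp7a, which receives copper from Atox1. Atp7a had 13.2, 13.4 and 13.9 CPM in Ctr1-null BCS cells, 14.3, 13.9 and 13.0 CPM in Ctr1-null cells and 16.9, 16.6 and 16.4 CPM in wild type cells, and fell by 0.30 ± 0.08 on the log2 scale (edgeR adjusted p = 0.0368), a call kept under 8 of 18 alternatives. The call of Slc11a2 ended without wild type replicate 3 (adjusted p = 0.0537).

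In Ctr1-null against wild type cells the deleted Slc31a1 (-4.40 ± 0.33, edgeR adjusted p = 0.00303) was the only gene of these 5 lists that edgeR called. Without wild type replicate 1 it called 16 of 66, where 17.3% of all genes were called. An unadjusted p under 0.05 was reached by 15 of the 66 genes, against 17.6% of all genes. In the copper list, Slc11a2 (-0.36 ± 0.09, adjusted p = 0.131) and Atp7a (-0.28 ± 0.08, 0.151) came next to Slc31a1, named here after their values were seen. The 2 genes with the smallest p in each of the other 4 lists were mt-Co2 (0.42 ± 0.11, adjusted p = 0.138), mt-Co3 (0.28 ± 0.11, 0.221), Gpx3 (1.69 ± 0.51, 0.155), Prdx4 (-0.39 ± 0.12, 0.176), Coa8 (0.36 ± 0.12, 0.188), Cox18 (0.14 ± 0.10, 0.470), Aifm1 (-0.24 ± 0.09, 0.203) and Chchd4 (-0.35 ± 0.25, 0.488). Without wild type replicate 1, mt-Co2 (0.44, edgeR adjusted p = 0.0389), mt-Co3 (0.35, 0.0387), Gpx3 (2.27, 0.0212), Prdx4 (-0.50, 0.0142) and Aifm1 (-0.32, 0.0288) were called. Coa8, Cox18 and Chchd4 were not. With all libraries, DESeq2 called 5 list genes in this comparison, against 6.49% of all genes. Among them were mt-Co2 (0.41, DESeq2 adjusted p = 0.0107) and Gpx3 (1.69, DESeq2 adjusted p = 0.0101). In Ctr1-null BCS against Ctr1-null cells 0 of the 66 tested genes of these lists were called by edgeR, against 0.0543% of all genes. DESeq2 called 1, Sod3 (-0.72, DESeq2 adjusted p = 0.0110), against 4.25%. Without wild type replicate 1, edgeR also called Sod3 (-0.72, adjusted p = 0.0334), where 0.972% of all genes were called. An unadjusted p under 0.05 was reached by 11 of the 66, against 14.7% of all genes, and 7 of these 11 were superoxide and peroxide enzymes with lower levels, of 16 in that list, where 6.37% of all genes were lower at that p. Besides Sod3 and Prdx6 they were Prdx1 (-0.31 ± 0.10, edgeR adjusted p = 0.221), Prdx4 (-0.34 ± 0.13, 0.264), Gpx8 (-0.23 ± 0.09, 0.294), Gpx1 (-0.18 ± 0.07, 0.313) and Gsr (-0.26 ± 0.11, 0.331), named after their values were seen. The 2 genes with the smallest p in each list were Sod3 (-0.71 ± 0.19, edgeR adjusted p = 0.164), Prdx6 (-0.45 ± 0.14, 0.196), Gfer (0.26 ± 0.08, 0.183), Aifm1 (-0.27 ± 0.09, 0.213), Coa7 (-0.32 ± 0.13, 0.301), Mt2 (-0.53 ± 0.25, 0.368), Slc31a2 (0.31 ± 0.17, 0.427), mt-Co3 (-0.18 ± 0.11, 0.463) and Cox6a1 (0.10 ± 0.07, 0.520). Pet117, with Coa7 the assembly factor of smallest p, had counts of 0 in every Ctr1-null BCS library and of 6, 17 and 48 in the Ctr1-null libraries, and wild type libraries had 0, 38 and 0.

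**Figure D5:**
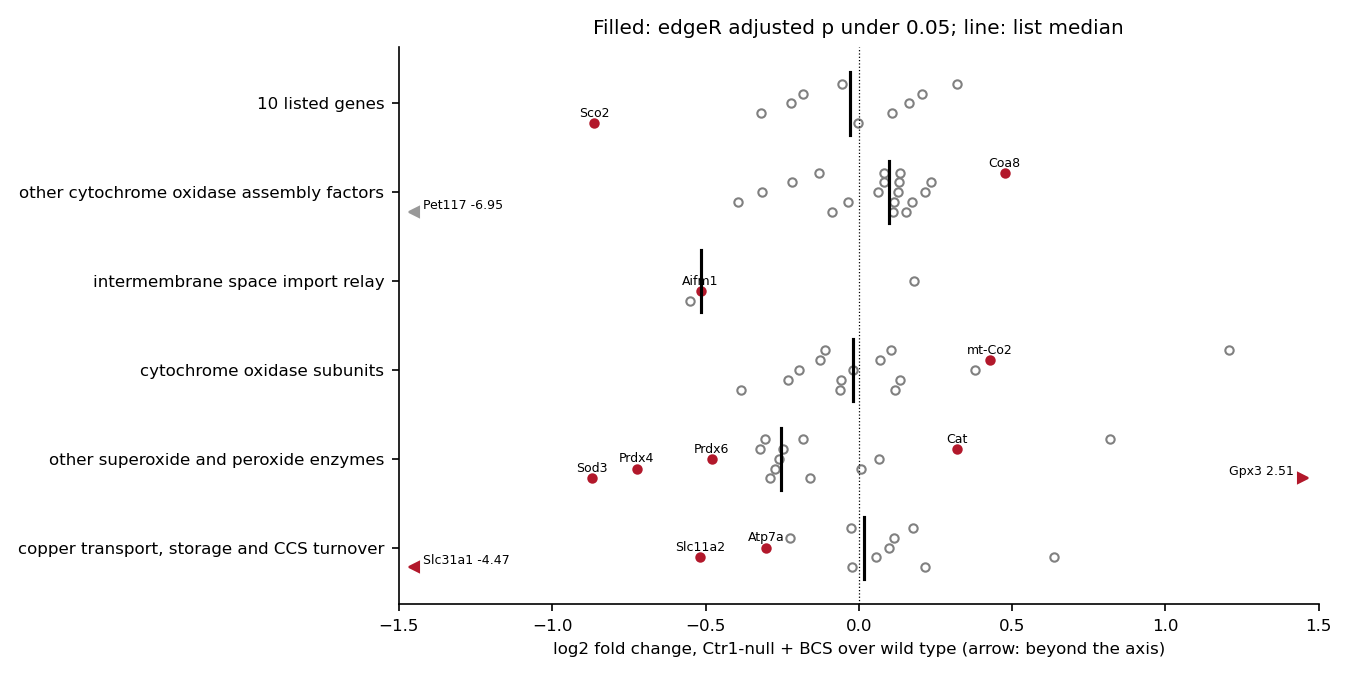
Log2 fold change in Ctr1-null BCS against wild type cells of each tested gene of the 10 described genes and the 5 further lists, with called genes filled, the list median as a bar and arrows for Pet117, Slc31a1 and Gpx3, which lie beyond the axis. Most points lie near 0. Called were 5 of 16 superoxide and peroxide enzymes, 3 of 12 copper genes and 1 of 3 relay genes (Aifm1 at -0.52). In the other lists, 1 of 15 oxidase subunits, 1 of 20 assembly factors and 1 of the 10 described genes (Sco2 at -0.86) were called. Of all genes tested, 15.8% were called.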

How the data were processed

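The authors deposited estimated counts per gene, whole numbers that are not normalised, and a table of scaled signal values, which gave the authors' factors for 1 alternative. FastQC, STAR, Salmon, DESeq2 and the build GRCm38 are named in the submitters' processing notes. The deposited values are labelled salmonTxi, and the roles of the other tools and all versions are not given in the sources used here. Libraries were prepared with an Illumina TruSeq kit from total RNA, per the labels.

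Of 52661 gene rows, 52566 were matched to GENCODE M21. Counts were filtered by filterByExpr (minimum count 10, minimum total 15), scaled by TMM and tested, 2-sided, in edgeR 4.0.16 (R 4.3.3) over all 9 libraries, with 6 residual degrees of freedom. Standard errors are the log2 fold change over the square root of F. Intervals are at 95%. Floors cover counting error only. Alternatives were other scalings and filters, DESeq2 1.42.0, limma-voom 3.58.1, 2-group fits, a replicate block and leaving out each library. Figures used matplotlib 3.10.9 in Python 3.11.15.

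Near copies were sought by blastn at 95% identity over 150 bases. The 10 genes and the lists were chosen with earlier results of these data known. Named genes were Slc31a1, mt-Co1, mt-Co2, list genes called (up to 3 a direction, or the 2 with the smallest p) and the nearest profiles. Tymp, Ncaph2 and other overlapping genes were named after their values were seen.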

Additional observations from a re-analysis of the deposited data

How the results depend on the processing

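The call of Sco2 in Ctr1-null BCS against wild type cells held under 9 settings that kept every library (RLE, library size alone, the authors' factors, both filters, DESeq2, limma-voom, the block and the fit of 2 groups) and ended with 3 of the 9 libraries left out. The counts of Sco2 and Tymp summed were not called (-0.13), but this sum was chosen after their opposite changes were seen and does not check Sco2 alone. The labels do not say that replicate numbers pair the samples. Of 9 same-numbered pairs, 2 correlated above 0.1 (-0.319 to 0.275), and differently numbered pairs ran from -0.287 to 0.412. With 3 libraries a group, these values cannot show whether a number marks a shared culture or day. With the replicate block, 1543 genes were called in Ctr1-null BCS against wild type cells (2916 without it). They were 2 in Ctr1-null BCS against Ctr1-null cells (10) and 1 in Ctr1-null against wild type cells (2). In Ctr1-null BCS against wild type cells the block gave 6 list genes called (11 without it), with 8.38% of all genes called (15.8% without it). There the edgeR adjusted p with the block was 0.0598 for Tymp, 0.0642 for Coa8, 0.0844 for mt-Co2, 0.0710 for Cat, 0.0771 for Prdx6 and 0.0861 for Atp7a.

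In Ctr1-null against wild type cells, genes called were 4 with RLE scaling, library size alone, the authors' factors or the stricter filter, 265 with no filter, 991 with DESeq2, 6 with limma-voom, 1 in the fit of 2 groups and 1 to 3254 with a library left out. In Ctr1-null BCS against Ctr1-null cells they were 114 with no filter, 621 with DESeq2 and 0 to 183 with a library left out, and against wild type 568 to 5840. With library size alone, 4 of the 10 genes were called in Ctr1-null BCS against wild type cells (15.5% of all genes). They were 3 with the stricter filter (20.9%) and 2 with DESeq2 (21.3%). With a library left out, 0 to 2 of the 10 were called there (3.01% to 31.0% of all genes). In Ctr1-null against wild type cells 0 to 2 were called with a library left out (0.00529% to 17.3% of all genes). With a library left out, list genes called were 4 to 24 in Ctr1-null BCS against wild type cells, beside the same shares of all genes. Against Ctr1-null cells they were 0 to 1, where 0% to 0.972% of all genes were called, and DESeq2 called 1 (4.25% of all genes). In Ctr1-null against wild type cells they were 1 to 16 (0.00529% to 17.3% of all genes), and DESeq2 called 5 (6.49%). What moved these counts was not tested.

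Values near 0 changed sign. Cox11 in Ctr1-null BCS against Ctr1-null cells was 0.025 with library size alone and -0.10 to 0.053 with a library left out, and Slc25a3 was -0.019 with the authors' factors and -0.072 to 0.13. There, Sod1 was -0.21 to 0.038 and Sco1 -0.050 to 0.078. Against wild type, Sco1 was 0.049 with library size alone and -0.15 to 0.0023 with a library left out, and Ccs was -0.025 to 0.21. Coa6 was 0.10 with library size alone, 0.014 with the authors' factors, 0.019 with the stricter filter, 0.0081 with limma-voom, 5e-04 in the fit of 2 groups and -0.099 to 0.086 with a library left out. In Ctr1-null against wild type cells, Atox1 was -0.027 to 0.069 and Cox17 -0.0014 to 0.097. With a library left out, the log2 ratio of Ccs to Sod1 differed by 0.35 to 0.51 in Ctr1-null BCS against wild type cells, by 0.27 to 0.53 against Ctr1-null cells and by -0.12 to 0.14 in Ctr1-null against wild type cells. For Sco2 to Sco1 these were -0.93 to -0.63, -0.71 to -0.49 and -0.36 to -0.06. With 3 libraries a group, the 95% interval of Sod1 against wild type, -0.74 to 0.10, spans differences that its call cannot settle.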
